A study of Mus musculus with 33 samples.

Results

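The cells described here are the untagged cells of lung and liver in a mouse single-cell RNA-seq study of niches in bone metastasis. The study used SAMENT, a niche labelling method in which tagged cells carry biotin after a labelling substrate is given, so a biotin negative sort holds cells that had not been tagged. All 8 samples carry the label intracardiac injection: 4 biotin negative liver samples and 4 biotin negative lung samples, called liver 1 to 4 and lung 1 to 4 after the replicate numbers in the labels. They were chosen by those labels alone and make up 8 of 32 intracardiac samples (33 samples in the series). After filtering at 500 UMIs, 200 genes and 15% mitochondrial UMIs per cell, 19268 cells remained of 55366 kept intracardiac cells, 8684 from liver and 10584 from lung. Strain, genotype, age, sex and what was injected were not given in the sources used here, no uninjected animals were compared, and no statement ties the replicates to separate animals. P-values therefore measure the spread between these samples, which may be partly technical.

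Lung and liver are both filled by blood that carries neutrophils, monocytes and lymphocytes, and each organ also holds residents of its own. Liver sinusoids are lined by a fenestrated endothelium and hold Kupffer cells and type 1 innate lymphoid cells, whereas lung holds alveolar macrophages and, at its barrier surfaces, IL-17 producing and type 2 lymphocytes. White cells handled at body temperature during tissue dissociation can switch on immediate early and heat shock genes within the procedure itself. Per the labels, both organs were minced and digested with collagenase A at 37 °C for 45 min.

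The kept cells of a sample held 6385858 to 19829143 UMIs in total. A median cell held 3135 UMIs in the shallowest sample and 5251 in the deepest. The median share of mitochondrial UMIs per cell was 3.27%, 1.13%, 1.46% and 1.94% in liver 1 to 4 and 2.79%, 0.52%, 1.78% and 1.14% in lung 1 to 4. The sorts were almost free of parenchyma. Alb, the albumin gene of hepatocytes, reached 0.76 to 2.05 UMIs per 1000000 UMIs (CPM) in liver, and Cyp2e1 had 1 UMI over all liver samples. Sftpc, the surfactant protein C gene of alveolar type 2 cells, reached 0.68 to 3.96 CPM in lung. Markers of Kupffer cells followed the replicate number as much as the organ: Clec4f was at 0.403, 52.3, 43.1 and 0 CPM in liver 1 to 4 and at 0.519, 43.9, 2.71 and 0 CPM in lung 1 to 4. By their classes the samples were mostly white blood cells.

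Samples with one replicate number may have been processed together, which no label states. Within a number, all samples carried the same list of 8 CellPlex tags and none of 112 sample pairs shared a cell barcode. Numbers 3 and 4 had an identical tag list, so the tags do not tell these apart. Of 384 pairs with different numbers, 196 shared no barcode either. Among the 8 samples compared here, pairs with different numbers shared 36 barcodes, at most 4 in a pair. Lung and liver samples of one number also deviated together from their organ means, with correlations across genes of 0.173, 0.651, 0.615 and 0.452 over all cells for numbers 1 to 4. Gene tests below are given first without the replicate number and then with it as a term, called the paired fit. Both are edgeR quasi-likelihood tests on UMI counts summed per sample, with Benjamini-Hochberg adjustment over all genes tested, and positive log2 fold changes mean higher in lung.

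The first question was whether the organs differed in cell make-up. Granulocyte precursors, the immature cells that fill with granule proteins before release as neutrophils, took 7.69%, 1.97%, 2.19% and 11.3% of kept cells in liver 1 to 4 and 1.67%, 0.635%, 0.54% and 1.59% in lung 1 to 4. The 2 organs did not overlap. The mean was 1.11% ± 0.603 in lung and 5.78% ± 4.52 in liver (SD, n = 4 each; two-sided exact permutation p = 0.0286, the smallest that 70 assignments allow; adjusted 0.257 over 9 classes). On cell numbers, edgeR gave a log2 fold change of -2.37 (adjusted p = 0.0352), and -2.18 in the paired fit (adjusted p = 0.00308).

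T cells took 8.08%, 6.06%, 6.17% and 6.47% of cells in liver and 26.5%, 6.91%, 29.4% and 16.5% in lung. Lung was above liver in 4 of 4 same-number pairs, and lung 2 lay within the liver range. The means were 19.8% ± 10.2 and 6.69% ± 0.94 (n = 4 each, exact permutation p = 0.0571, adjusted 0.257), so this difference of 13.1 percentage points did not pass the test. Plasmacytoid dendritic cells, the main interferon alpha producers, took 1.99%, 1.97%, 2.83% and 0.0789% in liver and 0.326%, 0.0794%, 0.135% and 0.227% in lung. All but liver 4, which held 1 such cell, exceeded every lung sample. The exact permutation p was 0.143 (n = 4 each, adjusted 0.321), while cell numbers in edgeR gave a log2 fold change of -3.12 (adjusted p = 0.019; -2.81 and 0.00293 in the paired fit).

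The other classes overlapped between the organs. Conventional dendritic cells took 1.66% ± 0.622 in lung and 3.28% ± 1.65 in liver and were lower in lung in 4 of 4 pairs (n = 4 each, exact permutation p = 0.114). Macrophages took 2.31% ± 0.882 and 5.68% ± 4.60, B cells 12.5% ± 7.81 and 17.4% ± 6.44, monocytes 18.1% ± 9.42 and 20.8% ± 12.8, neutrophils 35.1% ± 25.3 and 29.4% ± 20.5, and natural killer (NK) cells or type 1 innate lymphoid cells (ILC1) 5.54% ± 6.70 and 5.36% ± 1.73, in lung and liver in that order. Neutrophils alone ranged from 4.27% in lung 3 to 63.4% in lung 2. Of the 9 classes 1 had an exact permutation p under 0.05 and 0 passed after adjustment, against 2 by edgeR on cell numbers.

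**Figure D1:**
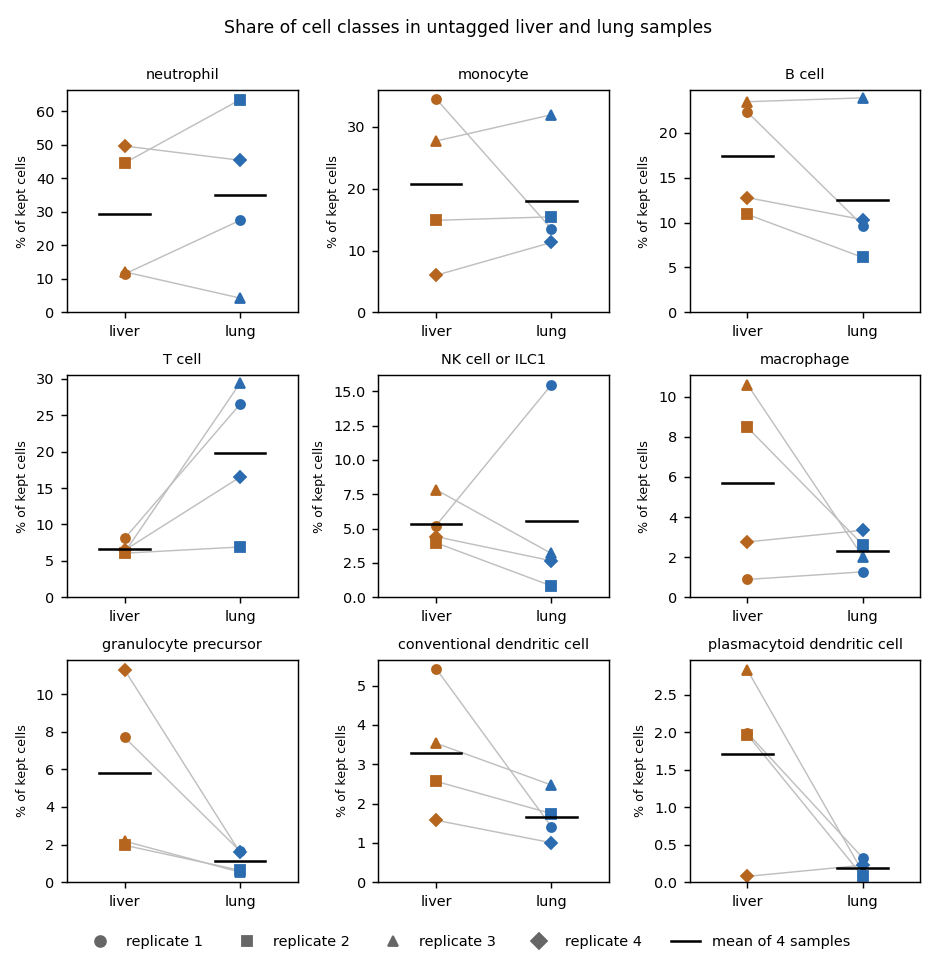
Share of kept cells (percent, vertical axes) of 9 cell classes in untagged liver and lung samples. Points are samples, marker shapes give the replicate number, grey lines join samples of one number, and black bars are means of 4. Granulocyte precursors do not overlap between the organs, and the T cell line rises to lung in all 4 pairs.

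Several clusters inside these classes leaned to one organ. They are counts of cells given as a description, since clusters were drawn from the same cells. Cluster 10 was led by Clec4g, Gpr182, Ptprb and Adgrf5, genes of liver sinusoidal and other endothelium, and was left without a class name. It held 15, 95, 30 and 47 cells in liver 1 to 4 and 5, 7, 2 and 0 cells in lung 1 to 4. Cluster 1, led by Egln3 and Ccdc126, was also left without a class name. It held 4, 7, 1 and 3 cells in liver and 29, 14, 4 and 183 in lung. Cluster 16, led by Xcl1, Cd160 and Cd7, which mark ILC1 and related cells, held 67, 40, 119 and 9 cells in liver and 11, 3, 15 and 9 in lung. T cell clusters 6, 20 and 22 held more cells in each lung sample than in the liver sample of its number. Cluster 6, led by Dapl1 and Lef1, held 180, 87, 4 and 0 cells in liver and 485, 92, 38 and 24 in lung. Cluster 20, led by Tcrg-C1, Cxcr6 and Il17a, held 45, 36, 38 and 42 cells in liver and 158, 58, 245 and 187 in lung. Cluster 22, led by Tnfrsf4, Izumo1r and Ctla4, genes high in regulatory T cells, held 23, 10, 19 and 5 cells in liver and 35, 16, 155 and 147 in lung. Monocyte cluster 5, led by Arhgef37, Vcan and Hspa1a, was almost wholly 1 sample, with 1041 of its 1136 cells in liver 1.

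The second question was which genes differed when all kept cells of a sample were summed. No gene of 12234 passed in edgeR without pairing (1065 had an unadjusted p below 0.05, and 217 passed in DESeq2). In the paired fit 44 genes passed (0.36% of those tested), 42 lower (0.343%) and 2 higher (0.0163%) in lung. In such sums, fewer cells of a type and less RNA per cell cannot be told apart. DESeq2 with the same pairing split its calls evenly, 236 higher and 236 lower. In edgeR 251 genes passed without number 1, all 44 among them, but 1 without number 2 and 0 without number 3 or number 4, while all 44 kept their direction each time.

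Sinusoidal endothelial genes had the lowest median of the gene lists examined over all cells. Gpr182, an atypical chemokine receptor of lymphatic and sinusoidal endothelium, was at 3.88, 31.6, 17.0 and 20.0 CPM in liver and 0.691, 0.425, 0.417 and 0.0659 CPM in lung (paired log2 fold change -5.28, SE 0.69, edgeR adjusted p = 0.045). Dnase1l3, a secreted nuclease that clears DNA, was at 7.36, 21.4, 14.8 and 10.6 CPM against 1.47, 1.61, 2.61 and 1.52 CPM (-2.78, SE 0.25, adjusted p = 0.0188). Oit3 followed at 2.12, 15, 5.32 and 9.08 against 0.259, 0.255, 0.313 and 0.132 CPM (-4.84, SE 0.49, adjusted p = 0.0214). No lung sample reached the lowest liver sample for any of these genes (3.92% of all genes did not overlap). All 11 tested members of the list had a negative log2 fold change, 3 of them past the paired test, with a median of -3.33 beside -0.01 over all genes. Gpr182 was also among the leading genes of cluster 10, which held 187 of its 201 cells in liver. Lung capillary endothelial genes had 7 tested members, a median of -1.53 and 0 calls. Nr2f2, a transcription factor of venous and lymphatic endothelium and not a list member, was also lower in lung (-6.37, SE 0.48, adjusted p = 0.015), as was Clec1b, the platelet and Kupffer cell receptor for podoplanin (-3.45, SE 0.33, adjusted p = 0.0188). Clec1b was the 1 call among 17 Kupffer cell genes, of which 13 were negative and 4 positive (median -0.38).

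The basophil proteases Mcpt8 and Prss34, picked out after their values were seen, were lower in lung in the paired fit. Mcpt8 was at 63.0, 0.63, 44.1 and 18.0 CPM in liver and 1.04, 0.085, 1.56 and 0.0659 CPM in lung (paired -5.57, SE 0.44, edgeR adjusted p = 0.015). Prss34 was at 63.6, 0.236, 35.6 and 9.40 against 1.12, 0.085, 1.25 and 0.264 CPM (-5.15, SE 0.34, adjusted p = 0.015). Liver 2 was below lung 1 and lung 3 for both genes, so the organs overlapped although each pair was lower in lung. The 12 basophil or mast cell markers summed to 345, 666, 305 and 701 CPM in liver and 422, 802, 76.8 and 554 CPM in lung. Hdc made up most of this, with means of 415 CPM in liver and 447 in lung. It is also on the neutrophil marker list, so the sum cannot stand for basophils alone. Among other members, Cpa3 was at 7.62, 0.0788, 2.79 and 1.10 against 1.47, 0.085, 0.313 and 0.198 CPM, slightly higher in lung in pair 2. Kit was at 9.43, 18.9, 14.4 and 23.0 against 8.56, 17.6, 4.69 and 19.2 CPM. Xcr1, the chemokine receptor of cross-presenting dendritic cells, was at 10.7, 5.83, 13.2 and 5.01 CPM in liver and 1.38, 1.10, 3.23 and 0.791 in lung without overlap (-2.41, SE 0.22, adjusted p = 0.0188).

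In the paired fit 7 of 30 cell cycle genes and 3 of 20 granule precursor genes passed as lower in lung (0.343% of all genes did). Birc5, the mitotic survivin gene, was at 38.4, 21.4, 22 and 57 CPM in liver and 12.8, 5.78, 8.45 and 20.1 CPM in lung (paired -1.52, SE 0.12, edgeR adjusted p = 0.015). Ube2c, which loads ubiquitin for the anaphase promoting complex, was at 60.8, 25.1, 25.5 and 96.2 against 15.8, 6.46, 10.4 and 22.5 CPM (-1.77, SE 0.17, adjusted p = 0.0188). Neither gene overlapped between the organs. Of 30 cell cycle genes 26 were lower in lung in all 4 pairs (13.8% of all genes were), the median was -1.46, and 7 passed the paired test: Birc5, Ccna2, Ccnb2, Cenpe, Nusap1, Stmn1 and Ube2c. The histone gene Hist1h2ae (-1.56, adjusted p = 0.0383) and the replication factor gene Pclaf (-1.47, adjusted p = 0.0214) passed as well. An unpaired fit without the neutrophil and granulocyte precursor classes turned Birc5 (0.18), Ccna2 (0.53), Nusap1 (0.73), Stmn1 (0.0294) and Pclaf (0.37) positive. Ccnb2, Ube2c and Hist1h2ae stayed negative.

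Ctsg and Elane encode the granule proteases cathepsin G and neutrophil elastase. Ctsg was at 38.2, 35.2, 66.0 and 41.0 CPM in liver and 6.83, 4.93, 21.3 and 15.2 CPM in lung (-2.0, SE 0.20, edgeR adjusted p = 0.0214). Elane was at 36.9, 63.0, 132 and 112 against 10.1, 10.8, 65.6 and 44.0 CPM and overlapped between organs (-1.61, SE 0.21, adjusted p = 0.045). With Ms4a3 they were the 3 of 20 granule precursor genes that passed the paired test. The list had a median of -1.21, and 16 members were lower in all pairs. The granulocyte precursor class includes cluster 7, led by Pclaf, Birc5 and Nusap1, which held 165 of its 203 cells in liver.

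The 2 genes higher in lung in the paired fit were Il1rl1 and F3. Il1rl1, the IL-33 receptor of type 2 lymphocytes, regulatory T cells and mast cells, was at 1.31, 1.02, 1.65 and 0.47 CPM in liver and 6.74, 3.23, 5.94 and 2.37 CPM in lung (paired 2.12, SE 0.25, edgeR adjusted p = 0.0377), with no overlap. It was the 1 of 16 IL-17, ILC2 and type 2 genes to pass. All 16 were positive, 7 were higher in all pairs (7.74% of all genes were), and the median was 1.38. F3 encodes tissue factor (1.75, SE 0.23, edgeR adjusted p = 0.045). At Leiden resolution 0.5 F3 was among the leading genes of an unnamed cluster with 158 of its 194 cells in lung 4. The part of that cluster in the F3 value was not tested. The 19 T cell receptor and costimulation genes were all positive with a median of 1.404 and 10 were higher in all pairs, yet 0 passed. Trac, the T cell receptor alpha constant gene, was at 22.3, 23.9, 22.2 and 16.6 CPM in liver and 111, 27.4, 88.1 and 70.9 in lung (1.84, SE 0.32, edgeR adjusted p = 0.119; 0.105 paired). Il7r, the IL-7 receptor gene, was at 76.2, 75.4, 78.8 and 43.5 against 218, 80.5, 273 and 187 CPM (adjusted p = 0.151; 0.109 paired). Neither gene overlapped between organs, and lung 2 was closest to liver for both, as it was for the T cell share. Vegfa, the vascular growth factor gene, was at 6.66, 17.4, 14.9 and 15.5 against 77.5, 50.7, 51.5 and 40.1 CPM (adjusted p = 0.107; 0.104 paired), also without overlap.

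**Figure D2:**
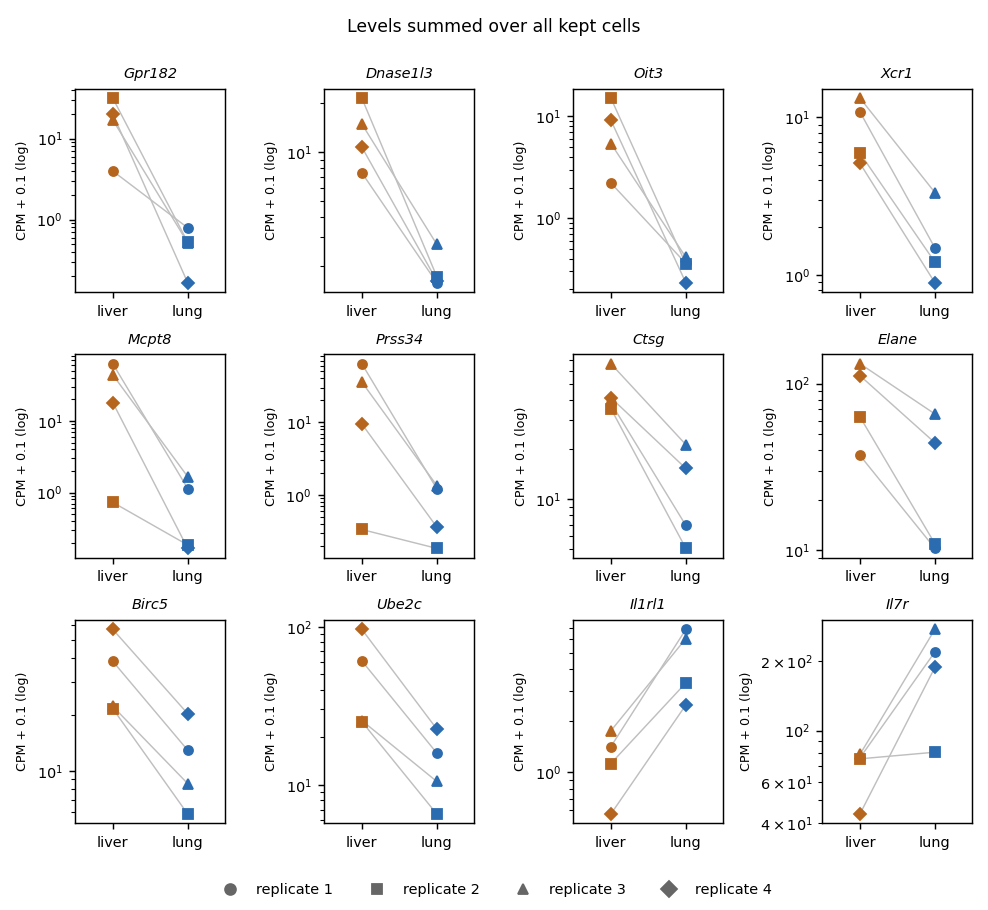
Levels of 12 genes summed over all kept cells (CPM with 0.1 added, log axes) in untagged liver and lung. Points are samples, marker shapes give the replicate number, and lines join samples of one number. All panels but Il1rl1 and Il7r fall from liver to lung in each pair, and lung 2 sits near liver for Il7r.

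Within cell classes, neutrophils gave the most calls in the paired edgeR fit. The neutrophil class was summed over 95 cells in lung 3 to 1597 cells in lung 2. No gene of 6607 passed without pairing (342 had an unadjusted p below 0.05, and 10 passed in DESeq2). In the paired edgeR fit 130 passed (1.97%), 99 higher (1.5%) and 31 lower (0.469%) in lung, and 24 of these passed again whichever replicate number was left out, a repeat in which the total ranged from 41 to 144.

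Hilpda had the smallest adjusted p among the named neutrophil genes. It encodes a lipid droplet protein that holds back the lipase ATGL and is induced by low oxygen. It was at 73.6, 127, 111 and 149 CPM in liver 1 to 4 and 310, 314, 350 and 334 CPM in lung 1 to 4. Every lung sample was above every liver sample, with a paired log2 fold change in edgeR of 1.51 (SE 0.14, adjusted p = 0.000219, or 0.133 without pairing), and 1.32 to 1.65 when single numbers were left out. The 250 bases before its upstream RefSeq start site (GRCm38.p6, chr6:29272238-29272487, plus strand) are shown because the gene was called under every paired leave-out. Capitals mark a match to one of the heat shock element letters described below, at position -44.
Hilpda: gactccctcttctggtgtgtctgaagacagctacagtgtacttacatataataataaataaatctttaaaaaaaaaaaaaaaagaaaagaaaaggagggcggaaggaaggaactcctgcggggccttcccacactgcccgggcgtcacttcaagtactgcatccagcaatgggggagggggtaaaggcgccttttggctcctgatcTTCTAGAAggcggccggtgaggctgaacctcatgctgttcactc
The hypoxia response core was searched as ACGTG or its complement CACGT, which 16.6% of 32817 promoter windows of this length held. It was not in this window and was found once, at position -43, in the window of a second start site downstream. These matches describe letters only.

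Other genes higher in lung neutrophils included Tgm2, encoding transglutaminase 2, at 47.9, 62.7, 33.0 and 37.8 CPM in liver and 220, 138, 84.1 and 73.2 CPM in lung (1.4, SE 0.18, edgeR adjusted p = 0.00148). Sar1a, a GTPase of vesicle budding, was at 79.2, 83.0, 68.5 and 46.9 against 206, 147, 163 and 95.6 CPM (1.09, SE 0.12, adjusted p = 0.000728). Cwc25, a splicing factor gene, rose alike (1.46, adjusted p = 0.000728), as did the costimulatory ligand gene Cd80 (0.99, adjusted p = 0.00476) and Vegfa (1.31, adjusted p = 0.00777). None of these 5 genes overlapped between the organs, which held for 2.69% of all genes tested in neutrophils. In the paired leave-outs Vegfa passed in 2 of 4, and Tgm2, Sar1a, Cwc25 and Cd80 in 4 of 4.

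Of 20 neutrophil activation and ageing genes 7 passed as higher and 2 as lower in lung in the paired edgeR fit (1.5% and 0.469% of all genes did). The list had a median of 0.37 (0.00 over all genes). The 7 were the interleukin-1 genes Il1a (2.11) and Il1b (0.46), the chemokine gene Cxcl3 (1.13), the mitochondrial superoxide dismutase Sod2 (1.12), Cd274, which encodes PD-L1 (0.95), the inflammasome sensor Nlrp3 (0.84) and the NF-kappaB feedback gene Tnfaip3 (0.56). Among these, Cd274 passed in 0 of 4 paired leave-outs and Sod2 and Tnfaip3 in 2. Nlrp3 was at 213, 392, 176 and 195 CPM in liver and 532, 543, 398 and 279 in lung, so lung 4 overlapped liver 2. Il1b, already abundant, was at 12448, 7462, 4067 and 7884 CPM in liver and 17082, 8534, 7166 and 10450 in lung. It overlapped between the organs and was higher in lung in each pair. The 2 lower members were Osm, an IL-6 family cytokine, at 1285, 818, 554 and 1502 against 480, 443, 378 and 774 CPM (-0.98, SE 0.11, adjusted p = 0.000728), and Socs3, the feedback inhibitor of such cytokines (-0.92, SE 0.14, adjusted p = 0.00554). The members that passed were therefore in both directions.

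Among granule genes 2 of 19 passed the paired test, both lower in lung (0.469% of all genes were called lower). They were Cd177, a surface glycoprotein gene, at 251, 297, 290 and 287 CPM in liver and 134, 238, 191 and 190 in lung (-0.59, SE 0.11, edgeR adjusted p = 0.0141), and Ngp (-0.52, SE 0.11, adjusted p = 0.0224). The list had a median of -0.21, with 12 members negative and 7 positive, and 7 were lower in all pairs (11.0% of all genes were). Map3k8, a kinase gene of Toll-like receptor signalling, was at 197, 153, 136 and 133 against 80.1, 91.5, 104 and 99.6 CPM (-0.74, SE 0.14, adjusted p = 0.0142). Sertad3 (-1.08, adjusted p = 0.0216) and the splicing regulator gene Hnrnpl (-0.57, adjusted p = 0.0441) were lower as well. The transcription factor gene Klf2 passed (-0.86, adjusted p = 0.0224) although lung 4, at 3142 CPM, was slightly above liver 4, at 3128 CPM. In the paired leave-outs Hnrnpl passed in 1 of 4, Sertad3, Map3k8, Ngp and Klf2 in 2, and Cd177 in 3. Areg, an epidermal growth factor receptor ligand, was at 14.6, 0, 0 and 6.23 CPM in liver and 78.2, 4.51, 8.41 and 13.7 in lung (2.28, SE 0.38, adjusted p = 0.00794). Thbs1 (1.59), Isg15 (0.82) and Saa3 (0.66) were higher with adjusted p of 0.0141, 0.0442 and 0.0109. Isg15, the 1 call among 18 interferon-stimulated genes (10 positive, 8 negative), passed in 0 of 4 paired leave-outs, and Thbs1 was lost in paired DESeq2 (adjusted p = 0.057). The neutrophil clusters drew unevenly on the replicate numbers: cluster 2 held 720 of its 2184 cells in liver 2 and 1088 in lung 2. Cd177 was among the leading genes of cluster 3. That cluster made up 23.6%, 5.4%, 63.8% and 23.9% of neutrophils in liver and 12.7%, 3.19%, 44.2% and 17.7% in lung. Cluster 0, led by Csf1, made up 18.4%, 21.9%, 2.66% and 7.31% against 34.2%, 24.8%, 9.47% and 4.72%. The part of these clusters in the neutrophil values was not tested.

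**Figure D3:**
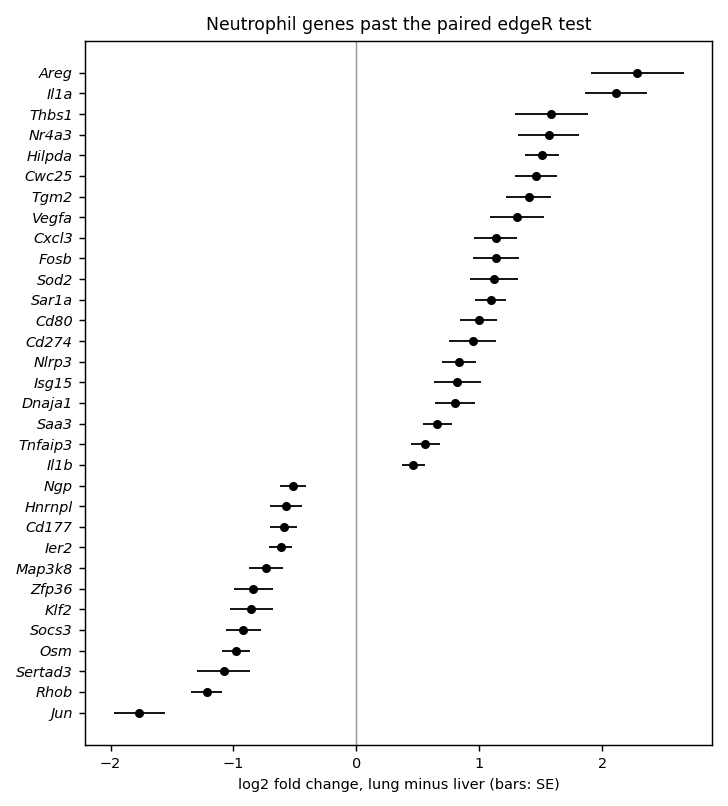
Paired log2 fold change (lung minus liver, horizontal axis) of the named neutrophil genes past the paired edgeR test. Points are estimates and bars their SE, over 4 pairs. Of the 32 genes drawn 20 lie above 0, led by Areg and Il1a, and 12 below, with Jun lowest.

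Immediate early and heat shock genes went both ways in neutrophils. Of 24 immediate early and heat shock genes tested in neutrophils 2 passed as higher in lung in the paired fit, Fosb (1.13) and the co-chaperone gene Dnaja1 (0.81), and 3 as lower, Jun, Ier2 and Zfp36. In the paired leave-outs Dnaja1 and Zfp36 passed in 2 of 4, Fosb and Ier2 in 3 and Jun in 4. Jun, an AP-1 subunit gene, was at 733, 485, 226 and 1742 CPM in liver and 119, 200, 137 and 429 in lung. The organs overlapped, since lung 4 exceeded liver 3, but each pair was lower in lung (-1.77, SE 0.21, edgeR adjusted p = 0.000728). Rhob, a small GTPase gene, was lower too (-1.22, SE 0.13, adjusted p = 0.00046).

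Jun was then followed through the other classes, a choice made after the values were seen. It was lower in lung in 20 of 20 class and pair combinations of neutrophils, monocytes, T cells, B cells and NK cells or ILC1, beside 6.28% to 15.8% of all genes lower in every pair of a class. It passed the paired edgeR test in neutrophils, T cells and B cells, the 3 classes whose numbers pair. Rhob was lower in 18 of 20. Fos, which codes for the partner of Jun in AP-1, was higher in 8 and lower in 12. Of the 44 genes called over all cells, which include these classes, Jun and Rhob were again called in neutrophils, and Jun in T cells and in B cells.

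Hspa1a and Hspa1b, the inducible Hsp70 chaperone genes, were lower in lung T cells and B cells in the paired fit. In T cells Hspa1a was at 342, 12.3, 152 and 64.1 CPM in liver and 48.8, 1.78, 20.9 and 3.94 CPM in lung (paired -2.96, SE 0.23, edgeR adjusted p = 0.000138). Hspa1b was at 451, 16.4, 493 and 128 against 76.1, 7.13, 37.5 and 9.57 CPM (-3.09, SE 0.27, adjusted p = 0.000273). Number 2 was lowest in both organs, liver 2 lay below lung 1, and lung was lower within each pair. Both genes passed under every paired leave-out in T cells, with Hspa1a between -3.17 and -2.79. In B cells Hspa1b was at 386, 28.6, 181 and 125 against 68.6, 15.7, 21.1 and 3.02 CPM (-3.02, SE 0.32, adjusted p = 0.000227). Hspa1a there was at 278, 8.42, 97.1 and 56.5 against 83.2, 10.5, 3.96 and 0 CPM (-2.78, SE 0.46, adjusted p = 0.0108), higher in lung in pair 2. That call was lost in paired DESeq2 (adjusted p = 0.786) and in 1 of 3 paired leave-outs in edgeR that tested it (adjusted p up to 0.135). Of the 3 genes lower in lung T cells and the 4 in lung B cells, 3 were shared: Hspa1a, Hspa1b and Jun. Over all 5 classes Hspa1a was lower in 19 of 20 pairs and Hspa1b in 18 of 20. In monocytes Hspa1a was at 574, 18.3, 113 and 62.5 against 97.6, 10.3, 17.0 and 9.85 CPM (-2.47, edgeR adjusted p = 0.522 without pairing), and in NK cells or ILC1 at 271, 52.8, 247 and 59.0 against 101, 0, 6.4 and 2.49 CPM (-1.97, adjusted p = 0.639). The mitochondrial UMI share, a sign of cell stress, was higher in liver in 3 of 4 pairs. Its part in these differences was not tested.

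The promoter windows of both chaperone genes are shown because the genes moved together in T cells and B cells. All 3 genes looked up in the RefSeq promoter table (GRCm38.p6; the submitters' processing notes name mm10) were found. The Hspa1a window is chr17:34972157-34972406 and the Hspa1b window chr17:34959239-34959488, both on the minus strand and written 5′ to 3′ toward the start. Capitals mark the heat shock element, searched as GAANNTTC or TTCNNGAA. Both patterns read alike on either strand.
Hspa1a: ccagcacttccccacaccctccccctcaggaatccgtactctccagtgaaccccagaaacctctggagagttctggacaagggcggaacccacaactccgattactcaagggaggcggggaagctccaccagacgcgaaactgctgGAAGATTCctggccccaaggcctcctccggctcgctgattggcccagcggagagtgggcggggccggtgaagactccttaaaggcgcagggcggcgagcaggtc
Hspa1b: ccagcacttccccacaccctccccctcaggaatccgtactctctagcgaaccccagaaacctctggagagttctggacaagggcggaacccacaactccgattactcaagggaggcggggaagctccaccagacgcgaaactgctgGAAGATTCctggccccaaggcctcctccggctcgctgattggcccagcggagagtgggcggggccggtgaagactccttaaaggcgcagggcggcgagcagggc
The windows were identical at 247 of 250 bases (98.8%), and each held GAAGATTC at position -104. Such letters occurred in 12.8% of 32817 promoter windows. The genes are also known as near copies. Their transcripts were not compared here, and where reads could not be assigned to 1 copy their separate values are uncertain.

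Hilpda, Cxcr4, Odc1 and Nr4a3 were also followed across classes after their values were seen. Within a class, 6.8% to 10.9% of all genes were higher in lung in every pair. Hilpda was higher in lung in 18 of 20 class and pair combinations and passed the paired test in neutrophils but not in T cells or B cells. Cxcr4, the chemokine receptor that retains cells in tissue, was higher in 19 of 20, Odc1, the rate-limiting enzyme gene of polyamine synthesis, in 19 of 20, and Nr4a3, an immediate early nuclear receptor gene, in 16 of 16 (it was not tested in B cells). Each of these 3 passed in at least 1 class. Of the genes higher in lung, 7 were called in both neutrophils (of 99) and B cells (of 25): Arl5b, Bcl2l11, Nr4a2, Pim3, Tgif1, Tmed5 and Vps37b.

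**Figure D4:**
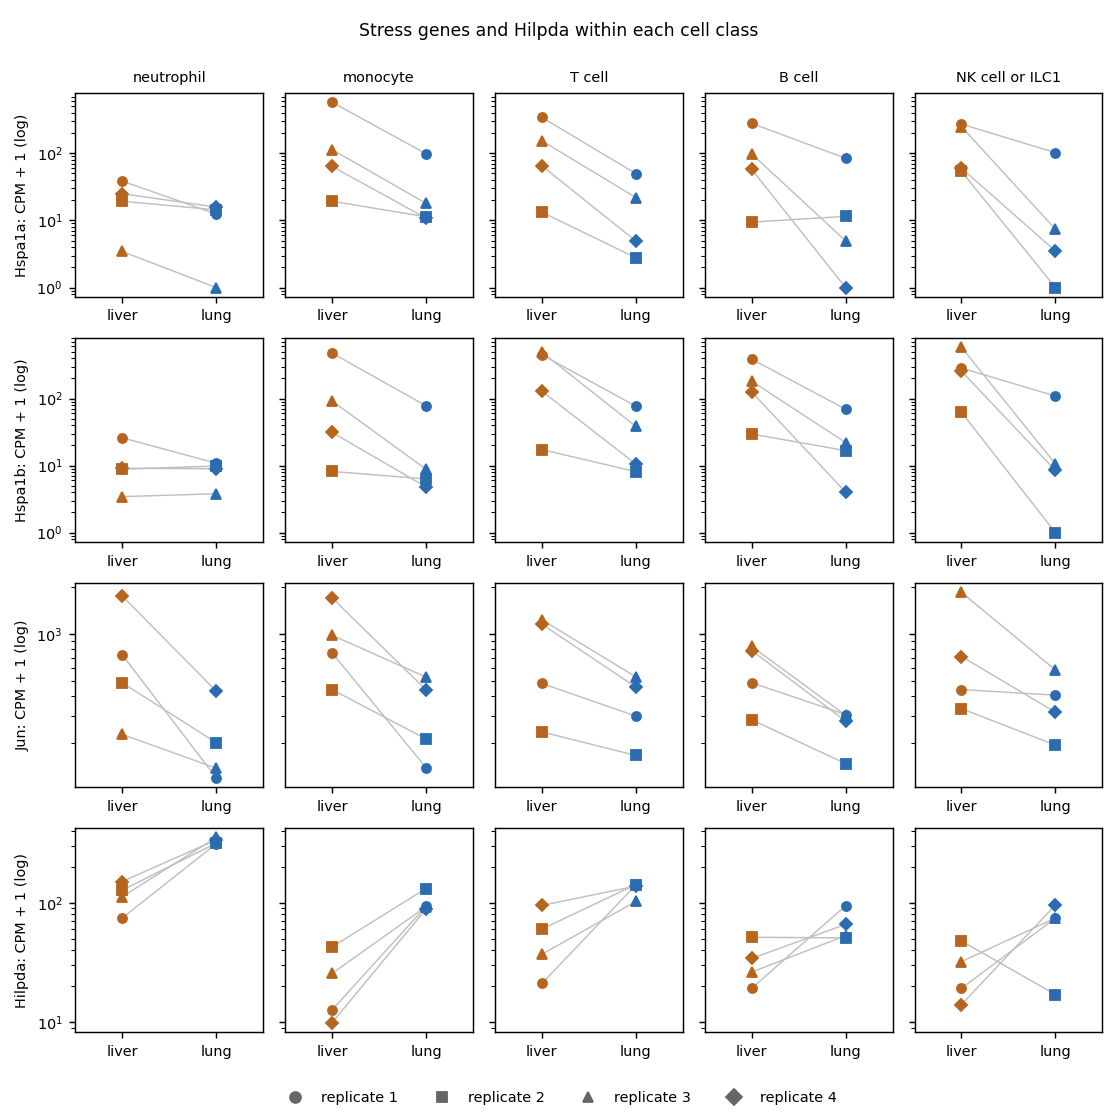
Levels of Hspa1a, Hspa1b, Jun and Hilpda (CPM with 1 added, log axes) within 5 cell classes in untagged liver and lung. Points are samples, marker shapes give the replicate number, and lines join samples of one number. Jun falls from liver to lung in all 20 lines and Hilpda rises in 18.

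T cells, summed over 82 to 731 cells per sample, gave no call of 6477 genes without pairing (279 had an unadjusted p below 0.05, and 1 passed in DESeq2) and 9 in the paired edgeR fit (0.139%). Beside the 3 stress genes above (0.0463%), 6 were higher in lung (0.0926%). Cxcr4 was at 45.6, 192, 100 and 42.7 CPM in liver and 107, 367, 319 and 185 CPM in lung (1.38, SE 0.18, adjusted p = 0.0125). Ramp3, a partner protein of calcitonin family receptors, was at 17.0, 40.9, 44.1 and 42.7 against 130, 123, 94.1 and 90.7 CPM without overlap, as 2.33% of genes were (1.83, SE 0.29, adjusted p = 0.0441). Tnfrsf4, which encodes the costimulatory receptor OX40, was at 13.8, 40.9, 84.2 and 12.8 against 87.2, 103, 156 and 186 CPM without overlap (1.92, SE 0.32, adjusted p = 0.0491). Nr4a3 (2.14, SE 0.35, adjusted p = 0.0483) and the signalling adaptor gene Traf4 (2.39, SE 0.40, adjusted p = 0.0491) passed as well. Il1b was at 37.1, 157, 32.1 and 17.1 against 139, 283, 88.6 and 102 CPM (1.51, SE 0.23, adjusted p = 0.0334). These are levels far under those of neutrophils, and the neutrophil gene S100a8 was found in the same T cells at 514 to 9944 CPM in liver and 806 to 3660 CPM in lung. The part of RNA from other cells was not tested. The T cell clusters differed between samples: cluster 22, led by Tnfrsf4, made up 8.46%, 6.62%, 19.8% and 6.1% of T cells in liver and 4.79%, 9.2%, 23.7% and 28.9% in lung, and Ramp3 was a leading gene of cluster 20. The part of cluster make-up in these values was not tested. When single replicate numbers were left out of the paired fit, Ramp3 and Tnfrsf4 passed in 0 of 4 repeats, Nr4a3 and Il1b in 1, Jun in 2 and Cxcr4 in 3. The 19 T cell receptor and costimulation genes had a median of 0.05 within T cells, with 0 calls, beside 1.404 over all cells.

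B cells, summed over 154 to 751 cells, gave no call of 6931 genes without pairing (213 had an unadjusted p below 0.05, and 2 passed in DESeq2) and 29 in the paired edgeR fit (0.418%), 25 of them higher (0.361%) and 4 lower (0.0577%) in lung. Odc1 was at 23.2, 37.0, 57.4 and 41.6 CPM in liver and 193, 102, 136 and 83.9 CPM in lung (1.71, SE 0.27, adjusted p = 0.0107). Cd86, a costimulatory ligand gene induced in activated B cells, was at 24.4, 25.3, 50.7 and 43.2 against 115, 70.9, 85.7 and 90.0 CPM (1.33, SE 0.23, adjusted p = 0.0169). Nr4a2, a nuclear receptor gene induced by antigen receptor signals, was at 1.22, 3.37, 10.1 and 3.33 against 70.1, 26.2, 29.0 and 18.1 CPM (3.03, SE 0.48, adjusted p = 0.0107). None of the 3 overlapped between organs (1.96% of genes did not), and Odc1 and Nr4a2 passed under every paired leave-out, as did 5 of the 29 calls in all. Nr4a2 ranged from 1.87 to 4.31 over these.

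Immediate early and heat shock genes went both ways in B cells as well. Btg2, an antiproliferative gene, was at 377, 279, 226 and 314 CPM in liver and 793, 388, 379 and 486 in lung (0.72, SE 0.13, edgeR adjusted p = 0.0169), and Egr1, a zinc finger factor gene, passed at 0.80 (SE 0.16, adjusted p = 0.0371). Of 24 such genes 2 were thus called higher and 3 called lower (Hspa1a, Hspa1b and Jun). The stress regulator Gadd45b (1.22), the heparan sulfate enzyme gene Hs3st1 (1.26), the transforming growth factor beta antagonist Skil (0.99) and the secretory pathway gene Tmed5 (0.83) were higher with adjusted p of 0.0243, 0.0169, 0.0419 and 0.0407. In the paired leave-outs Btg2, Egr1, Gadd45b and Skil passed in 2 of 4, Tmed5 in 1 and Hs3st1 in 3. The fourth lower gene was Iglc2, an immunoglobulin lambda constant gene, at 1407, 1458, 1798 and 1540 against 1133, 906, 1468 and 1075 CPM (-0.47, SE 0.09, adjusted p = 0.0344). It belongs to a multigene family whose reads may be split, so its value is uncertain. The 24 tested B cell receptor and maturation genes gave 0 calls and a median of -0.12.

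Monocytes, summed over 76 to 1163 cells, gave no call of 8987 genes (718 had an unadjusted p below 0.05, and 50 passed in DESeq2). Cluster 5 took 1041 of the 1163 monocytes of liver 1, whereas cluster 24 was the largest monocyte cluster in each of the other samples. Hilpda was at 11.7, 41.7, 24.7 and 8.93 CPM in liver and 92.3, 131, 91.7 and 87.7 CPM in lung (2.20, SE 0.36, edgeR adjusted p = 0.337). Tiparp, a target gene of the aryl hydrocarbon receptor, was at 38.9, 109, 101 and 96.5 against 250, 227, 237 and 170 CPM (1.44, SE 0.29, adjusted p = 0.399). Txnip, a glucose-responsive thioredoxin inhibitor gene, was at 420, 122, 154 and 138 against 85.5, 58.3, 59.5 and 54.9 CPM (-1.63, SE 0.36, adjusted p = 0.399). The organs did not overlap for any of the 3 (4.7% of genes did not), yet none passed. Nr4a2 (1.77), Tsc22d3 (-0.71) and Rhob (-1.12) had adjusted p of 0.399 as well.

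The NK cell or ILC1 class was the 1 class with calls in the unpaired edgeR test, 3 of 4709 genes (0.0637%). It was summed over 21 cells in lung 2 to 427 in lung 1. Hes1, a Notch target gene, was at 19.4, 23.4, 16.8 and 32.8 CPM in liver and 101, 499, 173 and 145 CPM in lung (3.14, SE 0.46, adjusted p = 0.0283). Cdkn1a, which encodes the cell cycle inhibitor p21, was at 48.0, 44.0, 40.8 and 26.2 against 173, 161, 195 and 97.3 CPM (1.90, SE 0.27, adjusted p = 0.0283). Cd160, a receptor of cytotoxic and innate lymphocytes, was at 115, 138, 336 and 111 against 30, 0, 16 and 22.4 CPM (-2.94, SE 0.46, adjusted p = 0.033). All 3 were without overlap (3.46% of genes in this class were). The calls moved with single samples: 0 genes passed without lung 3, 1 without liver 2 or without lung 1, and 8 without liver 4. Without lung 2, which held no Cd160 UMI, 3 genes passed, all higher in lung, so Cd160 was lost. DESeq2 called 17.

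Of 15 tissue residency and ILC1 genes 13 were negative, with a median of -1.11 beside -0.01 over all genes, and 1, Cd160, passed. Itga1, the collagen-binding integrin of resident cells, was at 83.4, 196, 315 and 32.8 CPM in liver and 4.74, 16.1, 28.8 and 15 in lung (-3.64, SE 0.69, edgeR adjusted p = 0.0999). Cxcr6, the chemokine receptor that holds lymphocytes in liver sinusoids, was at 46.9, 85.0, 274 and 39.3 against 1.58, 0, 28.8 and 12.5 CPM (-3.59, SE 0.84, adjusted p = 0.195). Cd7 was at 378, 700, 1554 and 446 against 155, 145, 141 and 155 CPM (-2.37, SE 0.40, adjusted p = 0.0617). The organs did not overlap for any of these genes. Cluster 16, led by Xcl1, Cd160 and Cd7, held 235 of its 273 cells in liver. In cluster 15 alone, with 3 samples against 3, Hes1 was at 2.575 (edgeR adjusted p = 0.04819) and Cd160 at -1.62 (adjusted p = 0.13). Cdkn1a was at 1.65 there (adjusted p = 0.261), so its call was lost as well, and Cd7 was at -0.47 (adjusted p = 0.852). Btg3, Nfkbia, Phlda1 and Klra5 had log2 fold changes of 1.57, 1.42, 1.87 and -2.20 and did not pass (edgeR adjusted p of 0.0999, 0.143, 0.15 and 0.152).

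**Figure D5:**
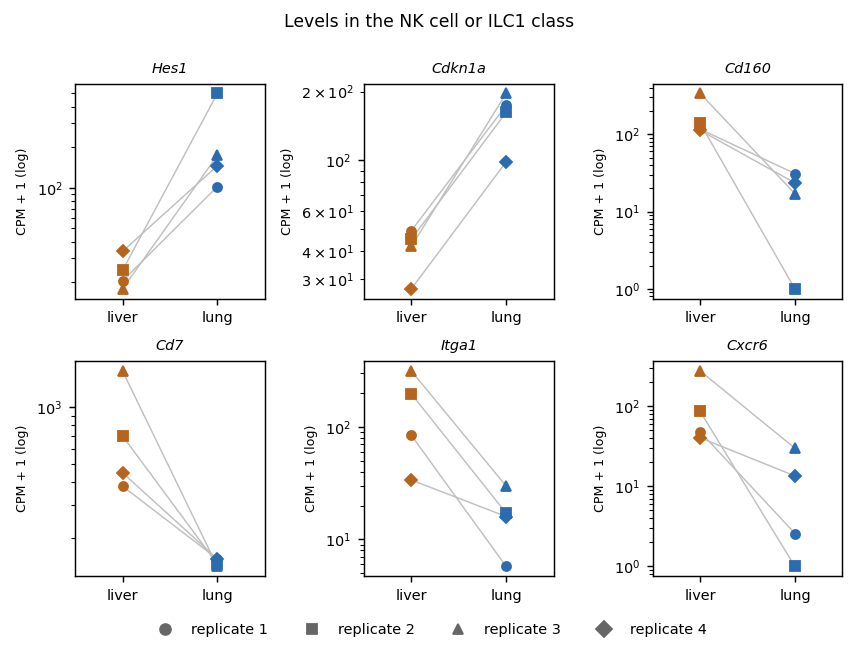
Levels of 6 genes (CPM with 1 added, log axes) within the NK cell or ILC1 class in untagged liver and lung. Points are samples, marker shapes give the replicate number, and lines join samples of one number. Hes1 and Cdkn1a rise and the other 4 fall from liver to lung in every pair, and lung 2, with 21 cells, holds no UMI of Cd160 or Cxcr6.

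The last question was where the organ difference of untagged cells departed from that of tagged cells. Tagged samples held 94 to 1221 kept cells in liver and 678 to 3074 in lung. Tagged liver 4 was the shallowest, with 94 cells and 482617 UMIs. The interaction of organ and sort in edgeR gave 19 genes of 12983 (0.146%), 18 of them with a lower lung to liver ratio in untagged cells. With the replicate number as a term 147 passed (1.13%), 125 lower and 22 higher. The 4 named genes had their highest mean in tagged lung. Net1 averaged 13.3 ± 4.47 CPM in untagged lung, 16.4 ± 5.27 in untagged liver, 196 ± 104 in tagged lung and 20.3 ± 11.3 in tagged liver (SD, n = 4 each; interaction -3.40, SE 0.54, edgeR adjusted p = 0.0205). Cyb561a3, a lysosomal iron reductase gene, averaged 15.4 ± 3.48 and 24.5 ± 4.92 CPM in untagged lung and liver and 122 ± 51.7 and 16.7 ± 5.76 CPM in the tagged samples (-3.48, SE 0.40, adjusted p = 0.00403). Sh2d1b1 (-3.64, adjusted p = 0.0367) and Cd200r4 (-3.19, adjusted p = 0.0367) had the same pattern. Leaving out 1 sample at a time gave 2 to 76 calls, and of the 4 genes Cyb561a3 alone passed each time. The 1 gene with a higher ratio in untagged cells without pairing, Cacna1a (3.21, SE 0.53, adjusted p = 0.025), averaged 12 CPM in tagged liver and 1.45 to 2.71 CPM in the other groups. Among genes reaching a mean of 50 CPM in a group, Smad7, the inhibitor of transforming growth factor beta signalling, had the smallest p for a higher ratio, at 2.30 (SE 0.54, adjusted p = 0.111).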

How the data were processed

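Single cells of 4 untagged liver and 4 untagged lung samples were analysed. The interaction also used the 8 tagged liver and lung samples, with 10436 kept cells. The authors deposited matrices of raw UMI counts per gene and cell, demultiplexed per the labels; the submitters' processing notes name Cell Ranger, Seurat and mm10. Cells with at least 500 UMIs, 200 genes and at most 15% mitochondrial UMIs were kept. Cells were clustered with scanpy 1.11.5 (2000 variable genes, 30 components, Leiden resolution 1.0) and named from 23 marker lists; 22 of 26 clusters were named, and 3.09% of cells were not. Scrublet called 428 cells (2.22%), and none was removed. Counts were summed per sample, over all cells and per class with at least 20 cells in the sample, and tested with edgeR 4.0.16 (TMM, quasi-likelihood, adjusted p under 0.05), with DESeq2 1.42.0 as an alternative. The procedure was tested on simulated data.

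Equal replicate numbers were taken to pair samples where every pair's deviations correlated above 0.1: all cells (0.173 to 0.651), neutrophils (0.258 to 0.536), T cells (0.316 to 0.384) and B cells (0.336 to 0.476), but not monocytes (lowest 0.0532) or NK cells and ILC1 (lowest -0.301). These correlations came from the same counts as the tests, so the choice of sets to pair is not independent of them. Members and gene lists were chosen with earlier results of these data known. Named genes passed the test without overlap of the organs at a mean of at least 50 CPM in the higher one, or were the list members past the test with the highest CPM; others, such as Mcpt8, Prss34, Nr2f2, Rhob and the genes followed across classes, were chosen after their values were seen. Total counts differed between samples, and their part in the precision was not tested.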

Additional observations from a re-analysis of the deposited data

Results flagged for a closer look

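In groups of 4 samples, 23 of 250 tested had 1 sample far from the other 3; chance gives about 5% of groups. Over all cells these were the NK cell or ILC1 share of lung 1 (15.47%), Il7r in liver (43.534 CPM) and Dnase1l3 in lung (2.607 CPM).

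In neutrophils they were Sertad3 in liver (91.702 CPM), Areg in lung (78.173 CPM), Klf2 in lung (3141.5 CPM), Dnaja1 in lung (512.86 CPM) and Nr4a3 in liver (33.97 CPM). In monocytes they were Hilpda in lung (130.53 CPM), Nr4a2 in liver (13.74 CPM), Txnip in lung (85.514 CPM) and liver (420.48 CPM), Hspa1a in lung (97.622 CPM) and liver (573.78 CPM), and Hspa1b in lung (77.189 CPM). In T cells they were Ramp3 (16.969 CPM), Il1b (157.43 CPM) and Nr4a3 (48.115 CPM) in liver, and Hilpda in lung (101.53 CPM). In B cells Hspa1a stood apart in lung (83.211 CPM). In NK cells or ILC1 they were Cd160 in liver (336.21 CPM), and Hspa1a (101.04 CPM) and Hspa1b (108.15 CPM) in lung. The lung samples apart for Hspa1a in monocytes, B cells and NK cells or ILC1 were each lung 1.

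The organ difference differed between the untagged and tagged sorts, by the edgeR interaction term, for Sh2d1b1 (-3.636), Cyb561a3 (-3.477), Net1 (-3.398) and Cd200r4 (-3.188).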

How the results depend on the processing

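Depth and the number of samples limit the class results, since lung 2 held 21 NK cells or ILC1 and lung 3 held 95 neutrophils. Of the named gene settings 1762 kept direction and side of the threshold, 575 gained a call, 62 lost one and 7 reversed. Causes were not tested. Alternatives with the block combined with DESeq2, RLE scaling or left-out numbers, and those on single clusters, were chosen after seeing the data. Leiden resolution 0.5 gave no macrophage class and so no value for it.

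With the replicate number as a block (pairing), calls went from 0 to 44 over all cells, 130 in neutrophils, 9 in T cells, 29 in B cells and 2 in monocytes, from 3 to 5 in NK cells or ILC1, and from 19 to 147 for the interaction. In that order without the interaction, block with DESeq2 gave 472, 116, 20, 17, 74 and 19, and block with RLE scaling 38, 131, 6, 33, 2 and 5. Paired leave-outs gave 0 to 251, 41 to 144, 4 to 12, 11 to 48 (13 without number 1), 0 to 186 and 0 to 109. In monocytes and NK cells or ILC1 not every same-number pair deviated together, so the block is given here alone. Among the 15 tissue residency and ILC1 genes in NK cells or ILC1, the block called Itga1 and Cxcr6 and lost Cd160. The block gave 24 calls over all cells without cluster 10, and 76 in monocyte cluster 24 alone (60 higher, 16 lower; 0 without the block).

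Without the block, DESeq2 gave 217 calls over all cells, 10 in neutrophils, 1 in T cells, 2 in B cells, 50 in monocytes, 17 in NK cells or ILC1 and 188 for the interaction. No low-count filter gave 35, 83, 84, 51, 84 and 142 for the 6 cell sets. Leaving out 1 sample gave 0 to 58 over all cells (58 without liver 1, 34 without lung 2), 0 to 16 in neutrophils, 0 to 4 in monocytes, 0 to 8 in NK cells or ILC1 and 2 to 76 for the interaction. All 32 samples in 1 fit gave 7, and per-cell means in limma gave 23. NK cells or ILC1 gave 19 without the top Scrublet scores and 7 in cluster 15 alone.

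The difference in NK cell or ILC1 share ranged from -3.134 to 1.743 points over left-out samples, and the block gave -0.70 on the log2 scale. The monocyte share difference ranged from -7.661 points to 1.855 points without liver 1, and the neutrophil one from -3.733 to 15.98 points, with -0.3015, -0.08562 and -3.733 without liver 1, liver 3 and lung 2. Granulocyte precursors (-2.37, block -2.18) and plasmacytoid dendritic cells (-3.12, block -2.81) passed in edgeR on cell numbers. Without the neutrophil and granulocyte precursor classes, a setting that removes cluster 7 with its leading genes Birc5, Pclaf and Nusap1, Birc5 (0.18), Ccna2 (0.53), Mki67 (0.24), Nusap1 (0.73), Pclaf (0.37), Stmn1 (0.0294) and Top2a (0.48) reversed.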
